A study of Mus musculus with 16 samples.

Results

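Transcripts of dendritic cells and macrophages were followed through 16 RNA libraries of sorted thymocytes. The 8 genes, Wdfy4, Mpeg1, Itgax, Cst3, Fcer1g, Ly75, Lyz2 and Csf1r, were chosen by their detection in these same libraries out of 46517 gene identifiers, and each had counts in at least 13 of the 16. Because detection chose the genes, their levels and fold changes are given as a description of these libraries, and counts over the genes support nothing further. The libraries came from live CD4+CD8+ double-positive thymocytes of NOD-AI4 mice aged 6 to 7 weeks, 1 library per mouse. NOD is a mouse strain that develops autoimmune diabetes, and AI4 is an autoreactive CD8 T cell clone whose receptor all of these mice carry as a transgene. The groups were 5 NOD-AI4-60A mice, which carry an Nfkbid transgene as well (3 males, 2 females), 5 mice labelled NOD-AI4-Nfkbid-/- (4 males, 1 female) and 6 NOD-AI4 controls (3 males, 3 females). Which promoter drives the Nfkbid transgene, and what the knockout allele removes, are not given in the labels.

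Nfkbid encodes the nuclear IkB family member IkBNS, and it was the check of the labels. It had 208.1 ± 72.1 CPM (counts per 1000000 on scaled library sizes) in transgenic libraries, 31.58 ± 4.3 CPM in the libraries labelled knockout and 32.68 ± 2.87 CPM in controls (mean ± SD over 5, 5 and 6 mice). The libraries labelled knockout were not lower than controls (exact two-sided permutation p = 0.606), so they are called knockout-labelled throughout. Library totals were 18546570 to 25836799 estimated counts in transgenic, 21662210 to 35637813 in knockout-labelled and 17955743 to 26586220 in control libraries. All controls carry mouse identifiers of 1 series and all other mice those of another, so with the controls on 1 side of every such comparison, group and identifier series cannot be told apart. The transgenic and knockout-labelled mice belong to the same series. Listed genes of double-positive thymocytes had a high summed level in every library, which does not measure the purity of the sort. All 16 listed double-positive thymocyte genes, among them Cd4 and Rag1, passed the filter on low counts, and their summed level was 12505 to 13282 CPM in transgenic, 13227 to 14528 CPM in knockout-labelled and 13008 to 16074 CPM in control libraries.

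Dendritic cells and macrophages are the myeloid cells of the thymus. Dendritic cells take up self proteins, cut them into peptides and show them on MHC molecules to developing thymocytes, and thymocytes whose receptor binds too strongly are deleted. Macrophages engulf the thymocytes that die. The 8 genes cover the steps of that work: growth factor sensing (Csf1r), adhesion (Itgax), uptake of ligands (Ly75, Fcer1g), killing and digestion of what was taken up (Mpeg1, Lyz2), cross-presentation (Wdfy4) and control of the proteases that cut antigens (Cst3).

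On GRCm38, Wdfy4 (ENSMUSG00000051506) spans chromosome 14, 32959547 to 33185508, on the minus strand. Mpeg1 (ENSMUSG00000046805) is on chromosome 19, 12460779 to 12465283, plus strand. Itgax (ENSMUSG00000030789) is on chromosome 7, 128129547 to 128150657, plus strand. All are annotated as protein-coding. Fcer1g (ENSMUSG00000058715) is on chromosome 1, 171229572 to 171234365, minus strand, and Lyz2 (ENSMUSG00000069516) is on chromosome 10, 117277331 to 117282321, minus strand. Ly75 (ENSMUSG00000026980, 60292103 to 60383303) and Cst3 (ENSMUSG00000027447, 148871722 to 148875692) share the minus strand of chromosome 2.

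The promoters of 4 of the genes are shown because these genes were spread over the libraries in different ways: Wdfy4 and Mpeg1 were high in all transgenic and in 3 of 5 knockout-labelled libraries, Lyz2 was highest in the transgenic libraries, and Ly75 was abundant in every library and highest in the transgenic ones. Each sequence runs from 250 bases before to 50 bases after the RefSeq start (GRCm38.p6), 5′ to 3′ on the gene's strand. Capitals mark the ETS core GGAA or its complement TTCC, the motif bound by ETS family factors, of which PU.1 is the one that myeloid cells depend on. The windows are chr14:33185017-33185316 (minus) for Wdfy4, chr19:12460520-12460819 (plus) for Mpeg1, chr10:117282223-117282522 (minus) for Lyz2 and chr2:60383224-60383523 (minus) for Ly75.
Wdfy4: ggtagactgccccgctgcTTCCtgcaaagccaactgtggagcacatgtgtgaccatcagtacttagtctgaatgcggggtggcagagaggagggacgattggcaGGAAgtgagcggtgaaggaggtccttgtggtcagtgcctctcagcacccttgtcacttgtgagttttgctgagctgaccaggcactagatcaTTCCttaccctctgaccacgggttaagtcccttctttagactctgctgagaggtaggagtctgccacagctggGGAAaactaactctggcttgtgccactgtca
Mpeg1: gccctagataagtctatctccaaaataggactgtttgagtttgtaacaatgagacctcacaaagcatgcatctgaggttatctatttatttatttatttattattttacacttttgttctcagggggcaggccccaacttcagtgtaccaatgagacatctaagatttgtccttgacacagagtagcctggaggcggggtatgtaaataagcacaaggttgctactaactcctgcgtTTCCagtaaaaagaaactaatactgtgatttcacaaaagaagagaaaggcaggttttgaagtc
Lyz2: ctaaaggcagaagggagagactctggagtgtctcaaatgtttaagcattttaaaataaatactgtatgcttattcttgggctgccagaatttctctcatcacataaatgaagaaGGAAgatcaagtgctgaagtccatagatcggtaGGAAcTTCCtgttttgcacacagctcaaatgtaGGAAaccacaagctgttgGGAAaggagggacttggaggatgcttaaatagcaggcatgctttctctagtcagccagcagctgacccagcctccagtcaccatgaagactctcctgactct
Ly75: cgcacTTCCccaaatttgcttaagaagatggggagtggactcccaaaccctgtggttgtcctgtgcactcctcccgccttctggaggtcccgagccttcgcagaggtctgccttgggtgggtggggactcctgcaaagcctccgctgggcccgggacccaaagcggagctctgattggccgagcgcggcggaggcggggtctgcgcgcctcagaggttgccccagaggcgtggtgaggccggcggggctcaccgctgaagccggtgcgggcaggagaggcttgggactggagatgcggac
Promoters of 7 of the 8 genes were searched on both strands, and that of Csf1r was left out of the search. The ETS core was in 7 of 7, with 5 matches in Lyz2, 4 in Wdfy4 and 1 each in Mpeg1 and Ly75, but it is also in 96.0% of 32851 promoters of the same 300 bases. The longer PU.1 core GAGGAA, which contains the ETS core, was in 1 of 7 (Cst3) and in 28.3% of all promoters. The NF-kB consensus was in 0 of 7 and in 8.46% of all promoters, GAAANNGAA (a pair of interferon regulatory factor half-sites) in 0 of 7 and in 8.56%, and TATAAA in 0 of 7 and in 13.6%. These letters are a description of 1 window per gene. The ETS core was added to the search after the other motifs had been counted.

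Per length of transcript, Cst3 stood well above the other genes in every group. It had 153.2 ± 14 TPM in transgenic libraries (transcripts per 1000000, the authors' deposited unit, SD, n = 5), 150.9 ± 8.02 TPM in knockout-labelled libraries (n = 5) and 131.8 ± 6.56 TPM in controls (n = 6). Ly75 came next at 14.39 ± 1.02, 8.422 ± 1.09 and 6.545 ± 0.917 TPM in the same groups. The other genes averaged below 10 TPM in each group.

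In transgenic libraries the order by mean TPM was then Lyz2 (9.37), Mpeg1 (4.675), Wdfy4 (2.158), Fcer1g (1.933), Itgax (0.9147) and Csf1r (0.8122). Over those libraries the ranges of neighbours overlapped for Ly75 and Lyz2, Mpeg1 and Wdfy4, Wdfy4 and Fcer1g, and Itgax and Csf1r, and did not overlap for Lyz2 and Mpeg1 or for Fcer1g and Itgax. In knockout-labelled libraries Mpeg1 (3.272 TPM) stood above Lyz2 (2.092 TPM), with overlapping ranges. In controls Lyz2 averaged 1.875 TPM, Mpeg1 0.6332, Fcer1g 0.2134, Wdfy4 0.1242, Csf1r 0.1119 and Itgax 0.08885 TPM, and the ranges of each gene and the next overlapped.

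Wdfy4 encodes a BEACH-domain protein that conventional dendritic cells of type 1 need to cross-present antigen from engulfed cells. Its level was 9.07, 6.33, 7.82, 5.32 and 8.72 CPM in the transgenic libraries (replicates 1 to 5), 7.89, 9.37, 11.7, 0.398 and 0.463 CPM in the knockout-labelled libraries (replicates 1 to 5) and 1.99, 0.703, 0.526, 0.383, 0.214 and 0.717 CPM in controls (replicates 1 to 6). All transgenic libraries lay above all controls, while the knockout-labelled libraries were of both kinds: replicates 1 to 3 were as high as the transgenic ones or higher, and replicates 4 and 5 lay within the control range. The fitted log2 fold change was 3.237 in transgenic over control libraries (SE 0.815, edgeR adjusted p = 0.00761) and 2.89 in knockout-labelled over control libraries (SE 0.821, edgeR adjusted p = 0.0207). The call in the knockout-labelled libraries was lost without knockout-labelled replicate 1 (2.63, edgeR adjusted p = 0.0659) or replicate 3 (2.46, edgeR adjusted p = 0.0532). Transgenic and knockout-labelled libraries differed by 0.35, with a 95% interval of -1.24 to 1.94 (edgeR adjusted p = 0.964).

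Mpeg1 encodes perforin-2, a pore-forming protein of the phagosome in macrophages and dendritic cells. It had 10.39, 12.97, 15.81, 9.998 and 15.96 CPM in transgenic libraries, 11.03, 16.48, 15.19, 0.568 and 0.631 CPM in knockout-labelled libraries, and 3.33, 1.41, 1.13, 1.21, 0.588 and 2.32 CPM in controls. The same 3 knockout-labelled libraries reached the transgenic range, and the other two lay at the low end of the controls. The log2 fold change was 2.94 in transgenic over control (SE 0.771, edgeR adjusted p = 0.00951) and 2.34 in knockout-labelled over control libraries (SE 0.781, edgeR adjusted p = 0.0424). The second of these calls was lost in 18 of 26 other settings: without any 1 of the transgenic libraries (edgeR adjusted p = 0.0537 to 0.0561), of control replicates 2 to 6 (0.053 to 0.0896) or of knockout-labelled replicates 1 to 3 (0.0963 to 0.122, log2 fold changes of 1.97 to 2.11), and with the replicate number as a block (0.111) among them.

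Lyz2 encodes lysozyme M, which cuts bacterial cell walls and marks macrophages, monocytes and neutrophils. Transgenic libraries held 7.76, 6.83, 4.95, 10.5 and 5.86 CPM of it, knockout-labelled libraries 2.80, 2.34, 2.03, 0.341 and 0.295 CPM, and controls 4.10, 0.962, 0.809, 0.876, 0.641 and 0.717 CPM. Every transgenic library was above every other library, control replicate 1 was the highest of the rest, and knockout-labelled replicates 4 and 5 were the lowest of all. The log2 fold change was 2.37 in transgenic over control libraries (SE 0.585, edgeR adjusted p = 0.00635), 0.13 in knockout-labelled over control libraries (95% interval -1.25 to 1.5, edgeR adjusted p = 0.906) and 2.24 in transgenic over knockout-labelled libraries (95% interval 0.899 to 3.58, edgeR adjusted p = 0.124). Without control replicate 1 the last of these passed the threshold (2.19, edgeR adjusted p = 0.036). Lyz1, the near-identical neighbour of Lyz2 that Paneth cells of the gut express, had 3 counts in all libraries together and was at 0 in 13 of the 16.

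Itgax encodes CD11c, the integrin alpha chain by which dendritic cells are usually sorted. Its levels were 2.68, 2.62, 1.69, 2.39 and 2.52 CPM in transgenic libraries, 0.891, 1.24, 1.58, 0.0568 and 0.379 CPM in knockout-labelled libraries, and 0.689, 0.111, 0.121, 0.110, 0.0534 and 0.221 CPM in controls. The transgenic libraries lay above all others. Knockout-labelled replicates 1 to 3 lay between the transgenic libraries and the controls, and replicates 4 and 5 lay inside the control range. The log2 fold change was 3.36 in transgenic over control libraries (SE 0.614, edgeR adjusted p = 7.12e-04), and neither the knockout-labelled excess over controls (1.78, 95% interval 0.325 to 3.23, edgeR adjusted p = 0.061) nor the transgenic excess over knockout-labelled libraries (1.58, 95% interval 0.345 to 2.81, edgeR adjusted p = 0.296) passed the threshold. The excess over controls passed without control replicate 1 (2.73, edgeR adjusted p = 0.0104), knockout-labelled replicate 4 (2.07, 0.0103) or replicate 5 (1.92, 0.0475).

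Csf1r encodes the receptor for CSF1 and interleukin 34, on which macrophages depend for survival, and lies on the plus strand of chromosome 18 (ENSMUSG00000024621, 61100598 to 61132149). Its level was 1.80, 2.27, 1.69, 1.86 and 2.71 CPM in transgenic libraries, 1.145, 0.681, 0.541, 0 and 0.421 CPM in knockout-labelled libraries, and 0.995, 0.444, 0.121, 0.0548, 0.214 and 0.0552 CPM in controls. The library at 0, knockout-labelled replicate 4, was the deepest of the series, and a count of 0 there allows up to 0.0852 CPM. Transgenic libraries lay above all others (log2 fold change over controls 2.60, SE 0.648, edgeR adjusted p = 0.00576), whereas knockout-labelled and control libraries overlapped (0.66, 95% interval -0.908 to 2.23, edgeR adjusted p = 0.53).

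Csf1r lies across the opposite strand of Hmgxb3, which had 55.9 to 73.2 CPM in transgenic, 59.3 to 68.8 CPM in knockout-labelled and 57.6 to 63.9 CPM in control libraries, so a small share of reads counted for the wrong gene would be large beside Csf1r. The libraries were made with a stranded kit, but no source used here says whether the counting used strand. The estimated counts of Csf1r were whole numbers in 1 of 16 libraries and those of Itgax in 2 of 16, so most of their values include shared reads divided by estimation. Over all libraries Csf1r had 338 counts and Itgax 386.

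Fcer1g encodes the Fc receptor gamma chain, the ITAM adaptor through which activating Fc receptors signal. It was the scarcest of the genes by count, with 128 in all libraries together. It had 1.22, 0.586, 0.608, 0.532 and 0.619 CPM in transgenic libraries, 0.467, 0.511, 0.270, 0.227 and 0.126 CPM in knockout-labelled libraries, and 0.230, 0.111, 0, 0, 0 and 0.110 CPM in controls, where the counts were 6, 3, 0, 0, 0 and 2. In the 3 control libraries at 0, the limit that a count of 0 allows was 0.121 to 0.164 CPM. Transgenic libraries lay above all others, and the knockout-labelled range overlapped that of controls through replicates 4 and 5. The fitted log2 fold change was 3.03 in transgenic over control (SE 0.568, edgeR adjusted p = 6.56e-04) and 1.94 in knockout-labelled over control libraries (SE 0.626, edgeR adjusted p = 0.0297). With 3 controls at 0, these fitted values depend on the prior count. The call in the knockout-labelled libraries was lost without any 1 of control replicates 3 to 5 (log2 fold changes of 1.67 to 1.72, edgeR adjusted p = 0.0503 to 0.0617) or without knockout-labelled replicate 1 (1.77, 0.0891) or replicate 2 (1.68, 0.0769).

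Ly75 encodes DEC-205, an endocytic receptor of dendritic cells and of cortical thymic epithelium. Its level was 64.4, 56.5, 57.6, 57.9 and 54.3 CPM in transgenic libraries, 35.8, 37.2, 34.8, 28.8 and 26.6 CPM in knockout-labelled libraries, and 21.5, 23.7, 21.9, 29.9, 24.2 and 27.7 CPM in controls. The transgenic libraries stood clear of all others, and the knockout-labelled libraries overlapped the upper controls. It was the most precisely measured of the fold changes above 1: 1.25 in transgenic over control libraries on the log2 scale (SE 0.0825, edgeR adjusted p = 9.79e-08), 0.46 in knockout-labelled over control libraries (SE 0.0857, edgeR adjusted p = 0.00151) and 0.80 in transgenic over knockout-labelled libraries (SE 0.0861, edgeR adjusted p = 5.45e-05). Its rank by p over all tested genes was 3 in the first of these comparisons and 12 in the last.

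Knockout-labelled replicates 4 and 5 were not low in every gene. In them, Ly75 (28.8 and 26.6 CPM) was above its control mean of 24.8 CPM, and Cst3 (50.5 and 54.7 CPM) was above its control mean of 47.8 CPM, and so was Fcer1g (0.227 and 0.126 CPM, against 0.0752 CPM). In replicate 5 alone, Itgax (0.379 CPM) and Csf1r (0.421 CPM) were above their control means of 0.2175 and 0.3141 CPM. Wdfy4, Mpeg1 and Lyz2 in the same libraries lay below their control means of 0.756, 1.66 and 1.35 CPM.

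Cst3 encodes cystatin C, a secreted inhibitor of cysteine cathepsins that many cell types make and dendritic cells make abundantly. It had 62.9, 52.5, 53.1, 51.3 and 59.2 CPM in transgenic libraries, 57.2, 56.5, 56.2, 50.5 and 54.7 CPM in knockout-labelled libraries, and 49.2, 50.3, 44.8, 49.3, 46.1 and 47.1 CPM in controls. All transgenic and all knockout-labelled libraries lay above all controls, by a narrow margin: the lowest knockout-labelled library had 50.5 CPM and the highest control 50.3 CPM. The log2 fold change was 0.23 in transgenic over control (SE 0.057, edgeR adjusted p = 0.00532), 0.21 in knockout-labelled over control (SE 0.0585, edgeR adjusted p = 0.0131) and 0.01 in transgenic over knockout-labelled libraries (95% interval -0.118 to 0.144, edgeR adjusted p = 0.985). Without knockout-labelled replicate 3 the second of these was 0.18 (edgeR adjusted p = 0.052).

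**Figure D1:**
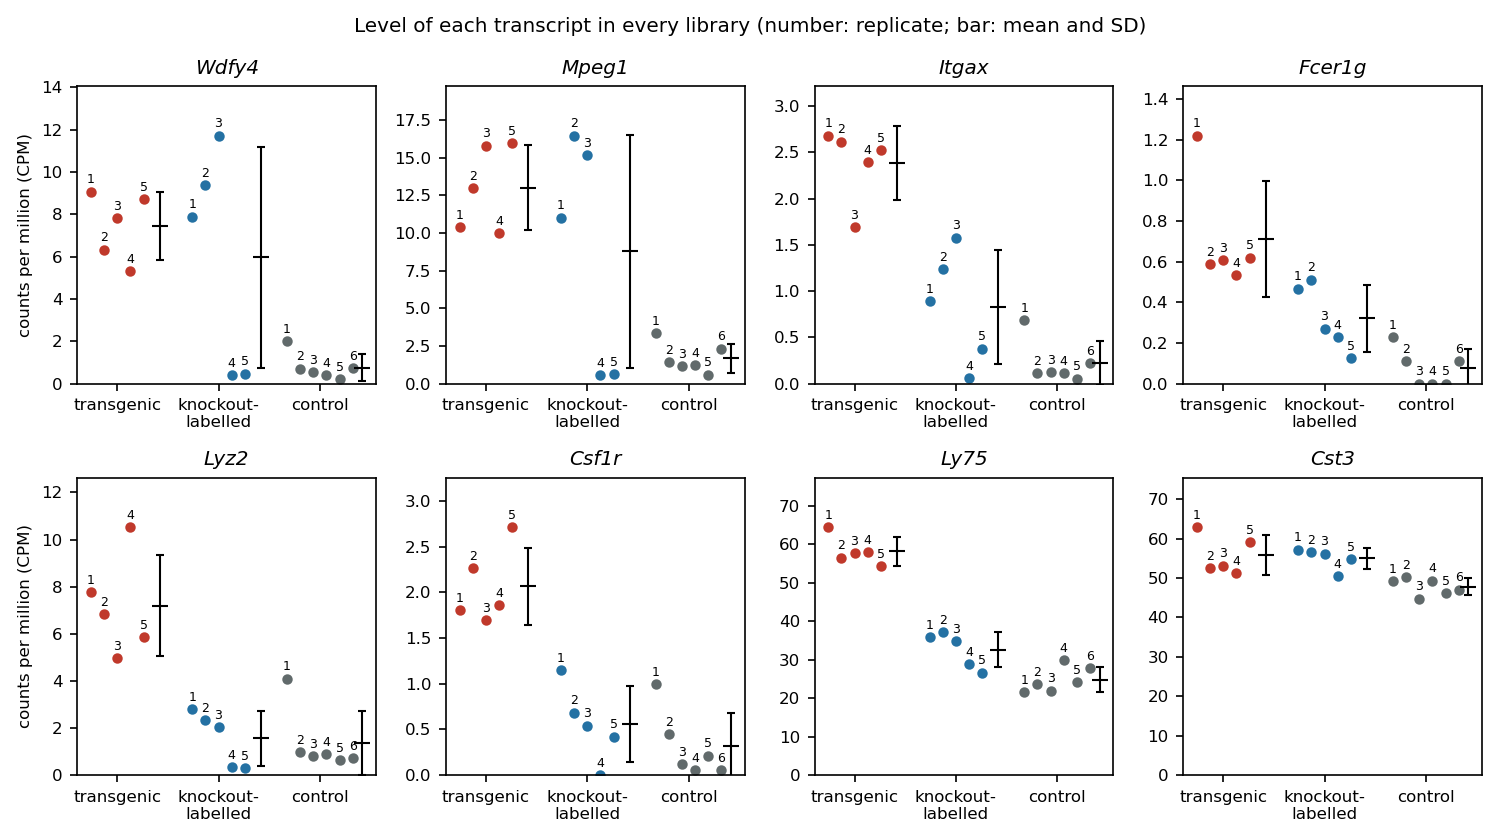
Level of each of the 8 transcripts in CPM (vertical axis, linear from 0, scaled per gene) in each library, by group (horizontal axis: transgenic n = 5, knockout-labelled n = 5, control n = 6). Numbers are replicates and black bars are mean and SD. In the Wdfy4 and Mpeg1 panels knockout-labelled replicates 1 to 3 sit among the transgenic libraries and replicates 4 and 5 among the controls, whereas in the Ly75 panel all 5 transgenic libraries, at 54.3 to 64.4 CPM, stand above the rest.

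Set side by side, 8 of the 8 genes were called higher in transgenic than in control libraries, where 23.0% of all tested genes were called higher and 38.6% were called in either direction. Their median log2 fold change was 2.77, and that of all tested genes was 0.0301. In knockout-labelled against control libraries 5 of 8 were called higher (Wdfy4, Mpeg1, Cst3, Fcer1g and Ly75), where 16.4% of all tested genes were called higher and 26.4% in either direction, and the median was 1.22 beside 0.0179 for all tested genes. These comparisons share the 6 controls. In 8 of 8 genes the transgenic range lay above the control range, as it did in 13.7% of all tested genes, and in 1 of 8 (Cst3) the knockout-labelled range did, as in 8.77% of all tested genes.

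Within the shared identifier series, 1 of 8 genes (Ly75) was called higher in transgenic than in knockout-labelled libraries, where 1.07% of all tested genes were called higher and 1.17% in either direction. The median log2 fold change was 0.942, beside 0.00036 for all tested genes. For Itgax, Fcer1g, Ly75, Lyz2 and Csf1r, 5 of the 8 genes, the transgenic range lay above the knockout-labelled range, as it did in 2.33% of all tested genes. Itgax, Fcer1g and Csf1r passed the filter on low counts largely through the transgenic libraries. Of the values that did not pass, Fcer1g had a log2 fold change of 1.08 (edgeR adjusted p = 0.497), Csf1r of 1.94 (edgeR adjusted p = 0.239) and Mpeg1 of 0.60 (95% interval -0.965 to 2.17, edgeR adjusted p = 0.918).

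**Figure D2:**
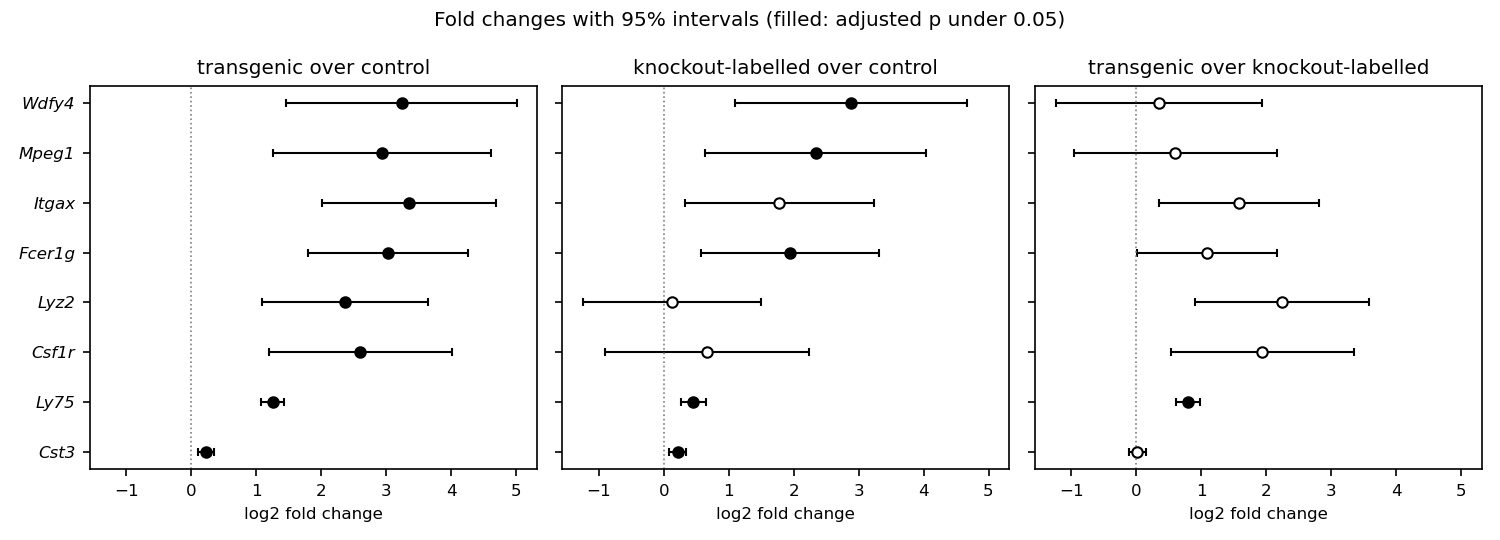
Log2 fold change (horizontal axis) of each transcript with its 95% interval from the edgeR fit, for transgenic over control, knockout-labelled over control and transgenic over knockout-labelled libraries. Filled points passed an adjusted p of 0.05. All 8 points are filled in the first panel, 5 in the second and 1, Ly75 at 0.80, in the third, where the intervals of Ly75 and Cst3 are the narrowest.

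The filter on low counts, which asked for 0.431 CPM in at least 5 libraries, bears on how these counts can be read. Itgax, Fcer1g and Csf1r exceeded it in 5 of 5 transgenic libraries but in only 1, 0 and 2 of 6 controls, and in 3, 2 and 3 of 5 knockout-labelled libraries. Such genes entered the test largely through the group in which they were high. Mpeg1, Cst3 and Ly75 exceeded it in all 16 libraries. In bulk RNA a higher level can mean more cells of a type or more RNA per cell, and these cannot be told apart here.

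With males alone (3 transgenic, 4 knockout-labelled and 3 control mice), a setting added after the data were seen, only Ly75 and Fcer1g were still called between transgenic and control libraries. The log2 fold changes that lost the call were 2.73 for Wdfy4, 2.80 for Mpeg1, 2.79 for Itgax, 1.96 for Csf1r, 1.83 for Lyz2 and 0.16 for Cst3 (edgeR adjusted p = 0.0608 to 0.168). Between males and females 0 of 8 were called by edgeR, which called 0.141% of all tested genes in either direction. DESeq2 called 0 of 8, and 110 genes in all. At an unadjusted edgeR p under 0.05 there was 1, Ly75 (0.0177, log2 fold change -0.19, male over female). The 95% intervals of this fold change were wide for Wdfy4 (-1.36 to 1.55), Mpeg1 (-1.29 to 1.54) and Csf1r (-1.13 to 1.33). For these genes the lack of a call does not show a small effect of sex. The interval of Cst3 was narrow (-0.146 to 0.0722).

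The knockout-labelled calls of Wdfy4 and Mpeg1 rest on replicates 1 to 3. Without those libraries and control replicate 1, the libraries highest in MHC class II transcripts within their groups, the knockout-labelled over control values turned to -0.32 for Wdfy4 (edgeR adjusted p = 0.677) and -1.22 for Mpeg1 (edgeR adjusted p = 0.113), and edgeR called 0 of the 8 genes. The class II level moves with these genes, so this value follows in part from how the libraries were left out. Lyz2 and Csf1r turned sign as well, having passed no threshold with all libraries. Transgenic over knockout-labelled values grew under the same setting, to 4.15 for Wdfy4 and 4.49 for Mpeg1.

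**Figure D3:**
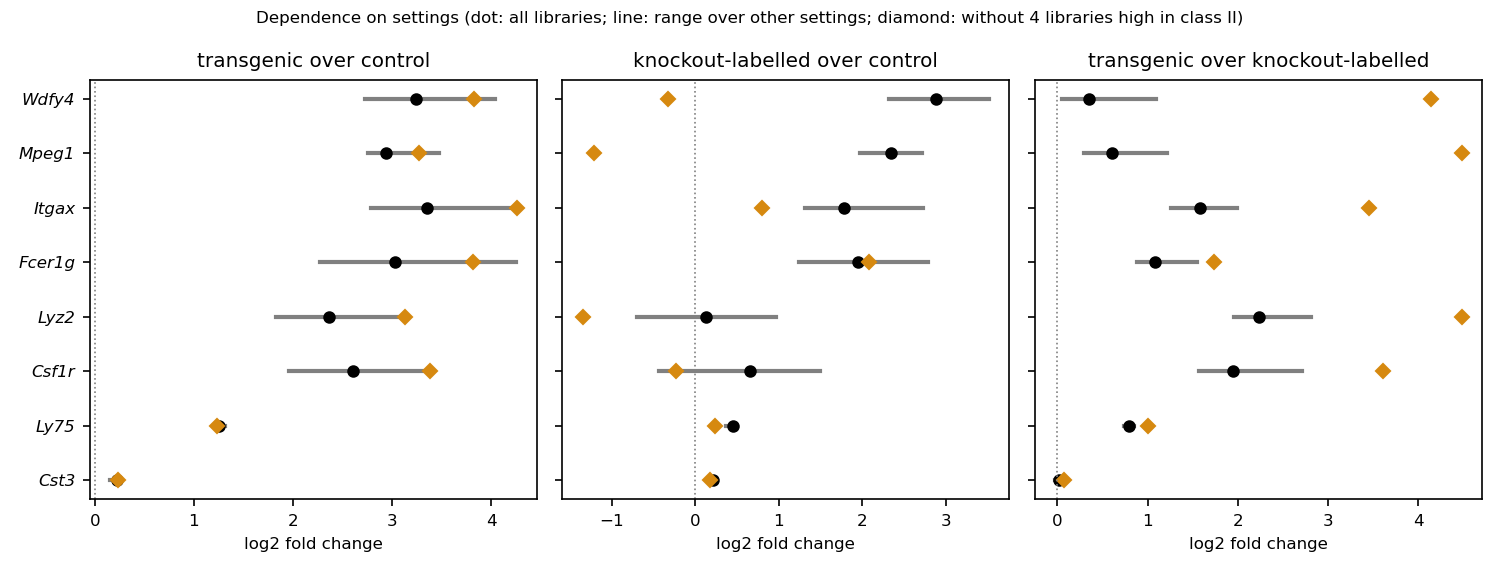
Log2 fold change (horizontal axis, scaled per panel) of each transcript with all libraries (dot), over the other settings (grey line, lowest to highest) and without control replicate 1 and knockout-labelled replicates 1 to 3 (diamond), in the 3 comparisons. In the knockout-labelled over control panel the diamonds of Wdfy4, Mpeg1, Lyz2 and Csf1r lie below 0, while those of Ly75 and Cst3 lie above 0 and within 0.3 of their dots.

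The proportions among the genes also differed between libraries. The ratio of Mpeg1 to Lyz2 counts was 1.34, 1.90, 3.19, 0.949 and 2.72 in transgenic libraries, 3.94, 7.04, 7.49, 1.67 and 2.14 in knockout-labelled libraries, and 0.813, 1.46, 1.40, 1.38, 0.917 and 3.23 in controls. The 3 knockout-labelled libraries with high Mpeg1 thus held more Mpeg1 per Lyz2 count than any other library. The ratio of Wdfy4 to Itgax was 3.38, 2.42, 4.62, 2.22 and 3.45 in transgenic libraries, 8.86, 7.59, 7.43, 7 and 1.22 in knockout-labelled libraries, and 2.89, 6.33, 4.33, 3.50, 4 and 3.25 in controls.

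Knockout-labelled replicates 1 to 4 had the highest Wdfy4 per Itgax count of the series. Replicate 4 rests on only 14 and 2 counts, however, and replicate 5 on 11 and 9. The ratios of control replicates 2 to 6 rest on 3, 3, 2, 1 and 4 counts of Itgax, so their order is uncertain. Knockout-labelled replicates 1 to 3 lay among or above the transgenic libraries in Wdfy4 and Mpeg1 and below them in Lyz2. In Itgax they lay below as well, but narrowly: the highest had 1.577 CPM and the lowest transgenic library 1.694 CPM. Neither Itgax nor Lyz2 passed the threshold in the edgeR fit of all transgenic and knockout-labelled libraries. Both ratios were picked after the values were seen and were given no test.

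**Figure D4:**
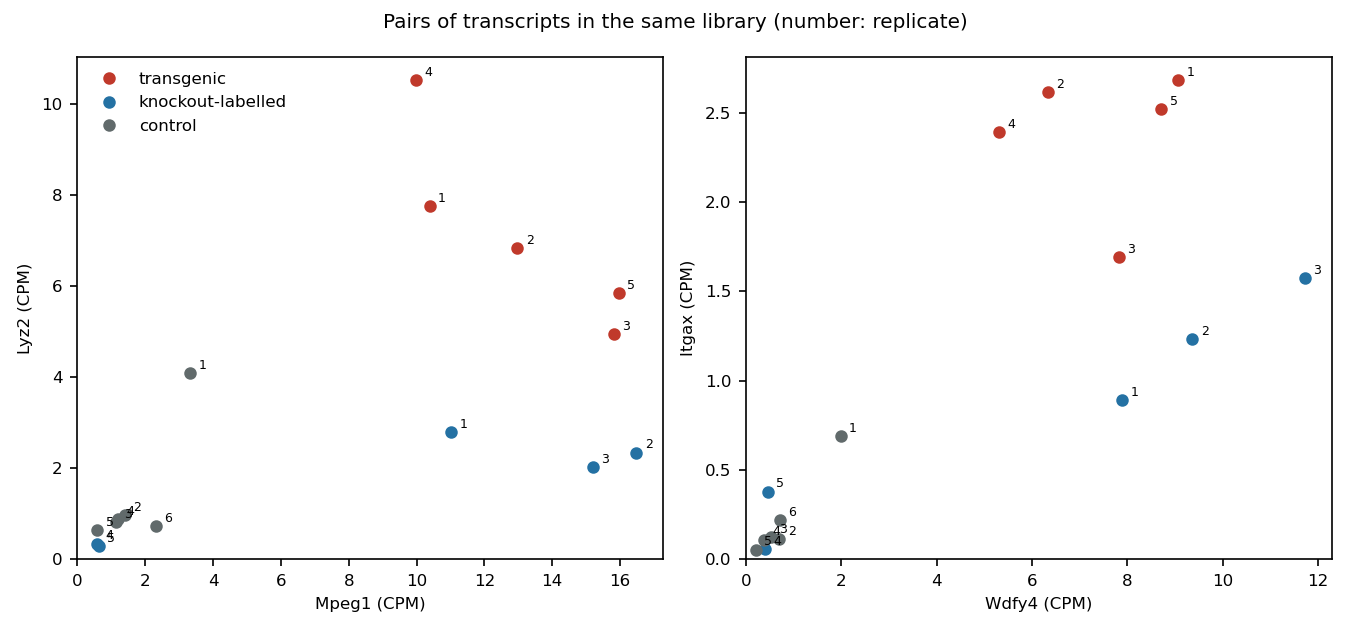
Lyz2 against Mpeg1 (left) and Itgax against Wdfy4 (right) in CPM, on linear axes, with 1 point per library and its replicate number. At Mpeg1 levels of 9.998 to 16.48 CPM the transgenic libraries hold 4.95 to 10.5 CPM of Lyz2 and the 3 knockout-labelled libraries 2.03 to 2.80 CPM.

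The other genes of conventional dendritic cells were counted in the same way. Of 11 tested of 15 listed, 6 were called higher and 0 lower in transgenic than in control libraries, 3 higher and 0 lower in knockout-labelled than in control libraries, and 0 between transgenic and knockout-labelled libraries (2 at an unadjusted p under 0.05). The median log2 fold changes were 1.19, 0.87 and 0.0166 in these comparisons. Of all tested genes, 23.0%, 16.4% and 1.07% were called higher in the same order. Irf8, a transcription factor of type 1 dendritic cells, had 18.01 ± 1.79 CPM in transgenic, 12.37 ± 3.53 CPM in knockout-labelled and 7.664 ± 1.53 CPM in control libraries. Naaa, a lysosomal amidase, had 7.678 ± 0.889, 8.321 ± 2.36 and 4.584 ± 0.862 CPM in the same groups. Both passed in each comparison with controls.

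Cd207 and Sirpa divided those groups in opposite ways. Cd207 encodes langerin, an endocytic lectin, and had 0.390, 0.312, 0.521, 0.266 and 0.905 CPM in transgenic libraries, 2.21, 2.09, 2.93, 0.0852 and 0.126 CPM in knockout-labelled libraries, and 0 to 0.345 CPM in controls. Its highest values were those of knockout-labelled replicates 1 to 3 (knockout-labelled over control log2 fold change 3.65, SE 0.924, edgeR adjusted p = 0.0102). Sirpa encodes a receptor for CD47 and marks type 2 dendritic cells and macrophages, and had 1.95 to 2.58 CPM in transgenic libraries, 0.849, 1.06, 0.721, 0.0852 and 0.168 CPM in knockout-labelled libraries, and 0.0405 to 0.651 CPM in controls. Its transgenic libraries were all above the others (transgenic over control log2 fold change 3.29, SE 0.604, edgeR adjusted p = 7.17e-04). Clec9a and Xcr1, surface receptors of type 1 dendritic cells and named after their values were seen, had 0.117 to 0.521 and 0.547 to 2.57 CPM in transgenic libraries and 0 to 0.115 and 0.534 to 0.995 CPM in controls. In knockout-labelled libraries they had 0.496 to 0.594 and 1.49 to 2.25 CPM in replicates 1 to 3 and 0 and 0.540 to 1.01 CPM in replicates 4 and 5. Itgam, which encodes CD11b, and Cadm1 were highest among the knockout-labelled libraries in replicate 4, at 14.9 and 16.9 CPM.

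Activated dendritic cells express chemokines and costimulatory molecules. Of 8 tested of 13 listed genes, 6 were called higher in transgenic than in control libraries, 1 (Cd83) in knockout-labelled than in control libraries and 1 (Ccl5) in transgenic than in knockout-labelled libraries, and 0 lower in any. Medians were 1.87, 0.526 and 0.472. Called higher over all tested genes were 23.0%, 16.4% and 1.07% in these comparisons. Cd83 had 0.7389 ± 0.291 CPM in transgenic, 0.6105 ± 0.416 CPM in knockout-labelled and 0.09152 ± 0.0951 CPM in control libraries. Ccl5, a chemokine that T and NK cells also make, had 1.648 ± 1.03 CPM in transgenic, 0.2482 ± 0.178 CPM in knockout-labelled and 0.2649 ± 0.131 CPM in control libraries. Ccr7, a chemokine receptor that maturing thymocytes express as well, had 33.22 ± 5.05 CPM in transgenic and 17.87 ± 5.21 CPM in control libraries.

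Plasmacytoid dendritic cells are the type I interferon producers among dendritic cells. Of 10 tested of 13 listed genes, 5 were called higher and 1 (Runx2) lower in transgenic than in control libraries, 0 higher and 1 (Ccr9) lower in knockout-labelled than in control libraries, and 1 higher (Spib) in transgenic than in knockout-labelled libraries. Medians were 0.738, -0.193 and 0.845. Siglech, a surface lectin of plasmacytoid dendritic cells, had 1.911 ± 0.713 CPM in transgenic and 0.368 ± 0.194 CPM in control libraries (log2 fold change 2.37, SE 0.482, adjusted p = 0.00131 by edgeR). Its knockout-labelled libraries lay between 0.0852 and 1.28 CPM. Spib, a transcription factor shared with B cells, had 1.893 ± 0.821 CPM in transgenic and 0.2713 ± 0.211 CPM in control libraries.

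Other members of the list that moved are also genes of interferon responses or of thymocytes. Irf7, which interferon induces in most cells, reached 167.2 and 102.4 CPM in transgenic replicates 3 and 5 and 79.4 CPM in control replicate 2, beside 28.0 to 46.1 CPM in the other transgenic libraries. The whole list summed to 1717.9 to 2307.6 CPM in transgenic, 1596.3 to 1913.7 CPM in knockout-labelled and 1950.3 to 2254.5 CPM in control libraries. Most of it was Ccr9, a chemokine receptor of double-positive thymocytes, at 1646 CPM in knockout-labelled and 1942 CPM in control libraries.

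Macrophage and monocyte genes had a higher summed level in every transgenic library than in any other library. Of 15 tested of 24 listed genes, 9 were called higher and 1 lower in transgenic than in control libraries, 0 higher and 1 lower in knockout-labelled than in control libraries, and 1 higher (Cybb) in transgenic than in knockout-labelled libraries. Medians were 1.48, 0.336 and 0.994. Cybb, the catalytic chain of the phagocyte oxidase, had 3.17, 3.98, 2.95, 3.67 and 2.29 CPM in transgenic libraries, 0.806, 0.894, 0.631, 0 and 0.126 CPM in knockout-labelled libraries, and 0.107 to 0.498 CPM in controls. Its transgenic range lay above all other libraries (log2 fold change 3.48 over controls, SE 0.537, edgeR adjusted p = 2.10e-04, and 2.71 over knockout-labelled libraries, SE 0.536, edgeR adjusted p = 0.0175). Ccr2, a chemokine receptor of monocytes, had 2.26 ± 0.656 CPM in transgenic and 0.3444 ± 0.426 CPM in control libraries, and Adgre1, which encodes F4/80, had 0.7439 ± 0.24 and 0.126 ± 0.0992 CPM.

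The summed level of the macrophage and monocyte list was 30.27 to 31.855 CPM in transgenic, 15.615 to 27.118 CPM in knockout-labelled and 18.966 to 24.805 CPM in control libraries. Lyz1 and Marco, a scavenger receptor of resident macrophages, were at 0 in 12 or more libraries.

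**Figure D5:**
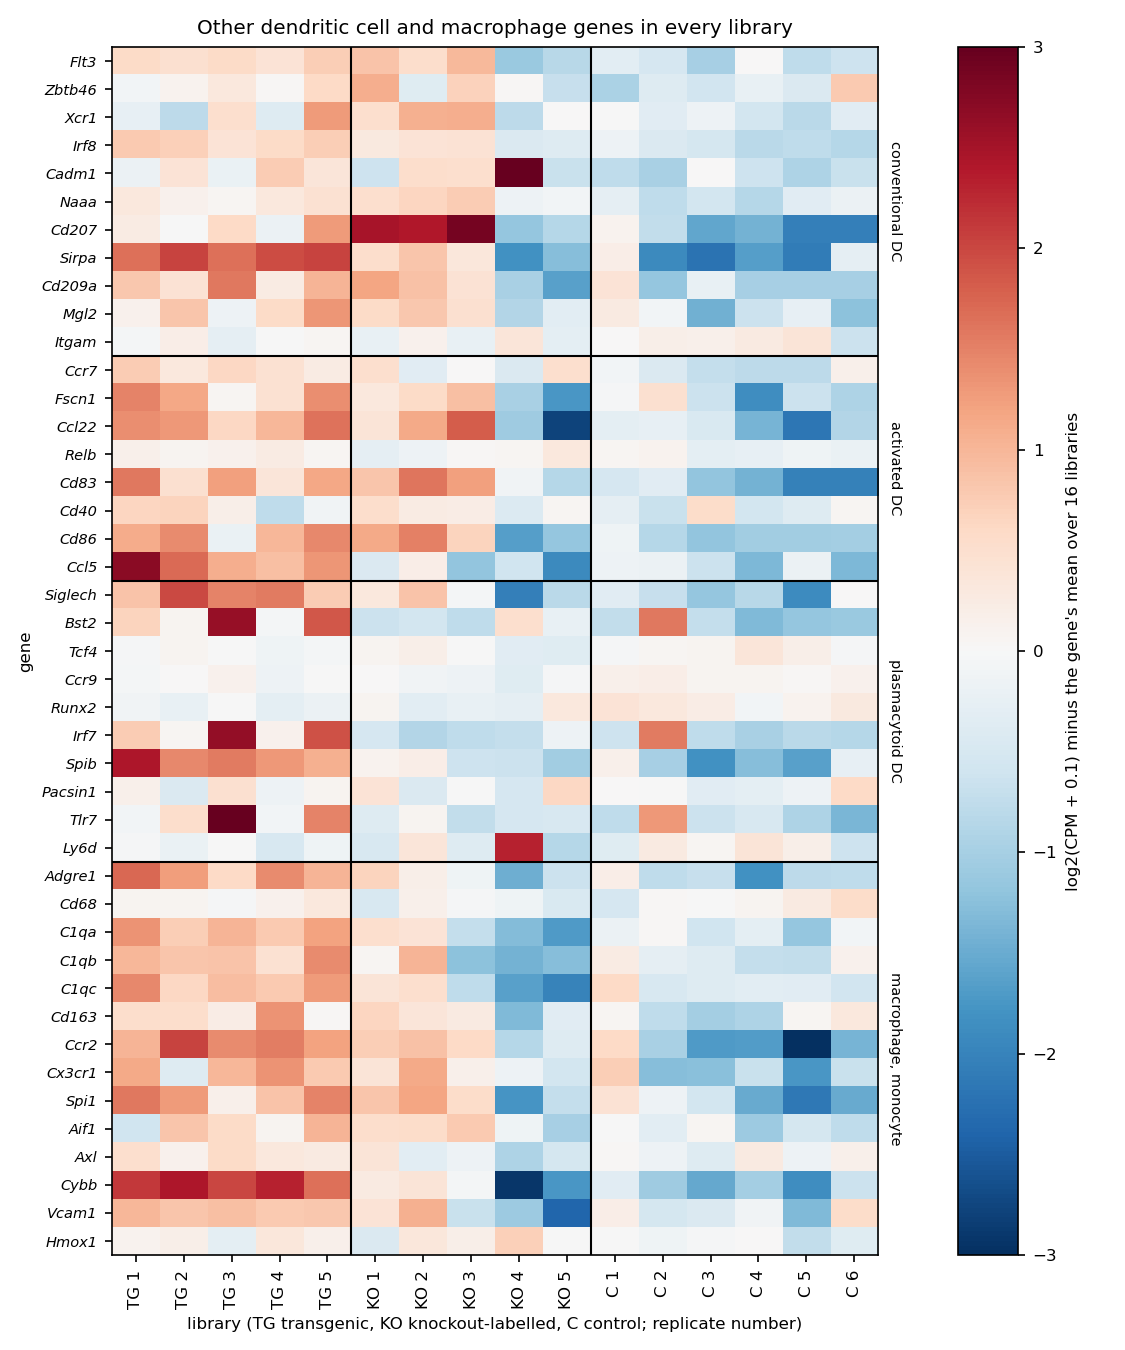
Tested genes of the dendritic cell, macrophage and monocyte lists (rows, with 1 tested gene not drawn) in each library (columns: transgenic, knockout-labelled, control), as log2(CPM + 0.1) minus the mean of the gene over 16 libraries, with colours saturating at 3 in either direction. The rows Cd207 and Cybb show the extremes: Cd207 is highest in knockout-labelled replicates 1 to 3 (2.09 to 2.93 CPM) and Cybb in the transgenic libraries (2.29 to 3.98 CPM).

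The partners of Fcer1g in Fc receptor signalling were counted next. Of 8 tested of 13 listed genes, 6 were called higher in transgenic than in control libraries, 2 (Tyrobp and Fgr) in knockout-labelled than in control libraries and 0 between transgenic and knockout-labelled libraries (6 at an unadjusted p under 0.05), and 0 were lower in any. Medians were 1.02, 0.432 and 0.585. Beside these counts stand shares of 23.0%, 16.4% and 1.07% of all tested genes called higher. Tyrobp encodes DAP12, the ITAM adaptor next in function to Fcer1g, and had 1.76 to 2.00 CPM in transgenic libraries, 0.295 to 1.06 CPM in knockout-labelled libraries and 0.0534 to 0.727 CPM in controls. Fcer1a, the alpha chain of the mast cell receptor for IgE, had 0 counts in all 16 libraries. Ptpn6, a phosphatase that thymocytes express, belongs to the same list, whose summed level was 338.67 to 382.65 CPM in transgenic, 283.1 to 329.05 CPM in knockout-labelled and 287.23 to 343.35 CPM in control libraries. The transgenic sums lay above all knockout-labelled ones and overlapped those of controls.

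Of the endocytic lectin and phagosome genes, which include partners of Ly75 and the oxidase, 16 of 19 were tested. In transgenic against control libraries 6 were called higher and 1 lower, in knockout-labelled against control libraries 1 (Cyba) higher, and in transgenic against knockout-labelled libraries 2 (Tap1 and Ncf1) higher. Medians were 0.169, 0.0659 and 0.11. Over all tested genes, 23.0%, 16.4% and 1.07% were called higher in these comparisons, and 15.6% were called lower in the first. Tap1, a subunit of the peptide transporter that interferon induces in most cells, had 174.5 ± 32.2 CPM in transgenic, 102.1 ± 3.66 CPM in knockout-labelled and 103.3 ± 16.5 CPM in control libraries. Ncf1, a cytosolic subunit of the phagocyte oxidase, had 2.81 ± 0.745, 1.059 ± 0.5 and 1.03 ± 0.124 CPM. Cyba, the small membrane subunit, had 84.77 ± 5.72, 78.02 ± 5.87 and 66.88 ± 4.05 CPM.

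Of the cystatin and cathepsin genes, 11 of 12 were tested, with 6 called higher in transgenic than in control libraries, 2 (Ctsz and Ctsh) in knockout-labelled than in control libraries and 1 (Ctss) in transgenic than in knockout-labelled libraries. Medians were 0.266, 0.162 and 0.212. The shares of all tested genes called higher were 23.0%, 16.4% and 1.07%. Ctss, cathepsin S, the protease that trims the invariant chain and is held in check by cystatin C, had 14.5, 15.1, 21.0, 14.5 and 14.9 CPM in transgenic libraries, 5.94, 3.62, 5.09, 2.30 and 3.83 CPM in knockout-labelled libraries, and 1.38 to 4.26 CPM in controls. The transgenic libraries were well above the rest (log2 fold change 2.47 over controls, SE 0.288, edgeR adjusted p = 3.41e-05, and 1.95 over knockout-labelled libraries, SE 0.296, edgeR adjusted p = 0.00246). Ctsh, cathepsin H, had 2.184 ± 0.644 CPM in transgenic, 0.6705 ± 0.548 CPM in knockout-labelled and 0.1901 ± 0.149 CPM in control libraries.

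Around Csf1r, 8 of 12 genes of the CSF receptor axis were tested. In transgenic against control libraries 3 were called higher, in knockout-labelled against control libraries 2 (Irf5 and Kit) higher and 2 (Etv3 and Cebpb) lower, and in transgenic against knockout-labelled libraries 1 (Etv3) higher. Medians were 0.456, 0.471 and 0.218. Beside these counts, 23.0%, 16.4% and 1.07% of all tested genes were called higher. Csf2rb, the shared signalling chain of the receptors for GM-CSF, interleukin 3 and interleukin 5, had 1.49 to 2.24 CPM in transgenic libraries, 0.764, 0.766, 0.947, 0.0568 and 0.0842 CPM in knockout-labelled libraries, and 0 to 0.421 CPM in controls (transgenic over control log2 fold change 3.52, SE 0.61, edgeR adjusted p = 4.59e-04). The ligands of Csf1r were scarce and were not tested: Csf1 had 25 counts and Il34 33 counts over all libraries.

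Of the pore-forming effector and leukocyte integrin genes, 9 of 10 were tested, with 3 called higher in transgenic than in control libraries, 1 (Itga4) in knockout-labelled than in control libraries and 0 between transgenic and knockout-labelled libraries (0 at an unadjusted p under 0.05 as well). Medians were 0.174, 0.036 and 0.0389. The shares called higher over all tested genes were 23.0%, 16.4% and 1.07% in the same order. Prf1, perforin 1, the pore-forming relative of Mpeg1 in killer lymphocytes, had 11.15 ± 1.66 CPM in transgenic and 8.376 ± 0.671 CPM in control libraries (log2 fold change 0.41, SE 0.12, edgeR adjusted p = 0.0134). Itgb7, an integrin beta chain of lymphocytes, had 183 ± 21.4 and 109.9 ± 43.6 CPM.

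MHC class II transcripts were also higher in transgenic than in control libraries. Of 10 tested genes, 9 were called higher in transgenic than in control libraries, 7 in knockout-labelled than in control libraries and 1 (H2-DMa) in transgenic than in knockout-labelled libraries, with medians of 1.70, 1.12 and 0.364. Of all tested genes, 23.0%, 16.4% and 1.07% were called higher in these comparisons. The summed class II level was 88.226 to 139.91 CPM in transgenic libraries and 31.643 to 53.705 CPM in controls. In knockout-labelled libraries it was 116.07, 108.39, 121.24, 29.97 and 46.423 CPM. H2-Aa had 9.84 to 16.8 CPM in transgenic libraries, 17.82, 17.97, 23.03, 1.278 and 1.39 CPM in knockout-labelled libraries, and 4.86 CPM in control replicate 1 beside 0.999 to 1.46 CPM in the other controls.

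B cells also express class II, and their genes differed between transgenic libraries and the rest. Of 12 tested of 14 listed B cell genes, 9 were called higher in transgenic than in control libraries, 0 higher and 2 (Cd79b and Ms4a1) lower in knockout-labelled than in control libraries, and 8 higher in transgenic than in knockout-labelled libraries, with medians of 2.37, -0.00195 and 2.07. Igkc, the immunoglobulin kappa constant region, had 27.6, 40.0, 74.7, 69.4 and 88.0 CPM in transgenic libraries, 0.114 to 1.32 CPM in knockout-labelled libraries and 0.107 to 2.64 CPM in controls. The summed list, most of it Ighm, was 635.59 to 795.04 CPM in transgenic, 371.03 to 428.92 CPM in knockout-labelled and 391.65 to 461.92 CPM in control libraries. Knockout-labelled replicates 1 to 3 were thus high in class II with Igkc at 0.811 to 1.32 CPM. The part of B cells in the levels of the 8 genes was not tested.

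Granulocytes, which express Lyz2 and Fcer1g, left little RNA: 1 of 12 listed genes (Cxcr2) passed the filter, Elane had 0 counts in all 16 libraries, and S100a9, Ltf and Mmp8 were at 0 in 12 or more. Retnlg, a gene of neutrophils named after its values were seen, had 0.0434 to 0.319 CPM in the 5 transgenic libraries and 0 counts in the other 11, and its part in the levels of Lyz2 and Fcer1g was not tested. Cxcr2 was not called in any comparison (transgenic over control log2 fold change -0.13, edgeR adjusted p = 0.324). Thymic epithelium, which expresses Ly75, was represented by 3 of 10 tested genes, of which 0 were called by edgeR in any of the 3 comparisons and 1, Psmb11 in transgenic against control libraries, had an unadjusted p under 0.05 (0.0494). Foxn1 and Krt14 were at 0 in 12 or more libraries, and the summed epithelial level was 4.8295 to 7.0489 CPM in transgenic, 5.5344 to 6.788 CPM in knockout-labelled and 5.2442 to 6.5552 CPM in control libraries.

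Of the stromal, endothelial and erythroid genes 6 of 11 were tested, and 1, Col1a2, was lower in transgenic libraries (10.47 ± 1.36 CPM) than in knockout-labelled (25.58 ± 8.57 CPM) and control libraries (20.61 ± 2.96 CPM). Of all tested genes, 15.6% were called lower in transgenic than in control libraries and 0.0938% lower than in knockout-labelled libraries. Col3a1 and Pdgfra were at 0 in 12 or more libraries. Of the double-positive thymocyte genes, 10 of 16 were called lower and 1 (Ptcra) higher in transgenic than in control libraries, where 15.6% of all tested genes were called lower, 4 lower and 1 (Ptcra) higher in knockout-labelled than in control libraries, where 1493 of 14933 tested genes were called lower, and 0 between transgenic and knockout-labelled libraries (2 at an unadjusted p under 0.05), with medians of -0.252, -0.166 and -0.091.

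Among 10632 genes that averaged 1 CPM or more (10633 for Fcer1g and Csf1r), those most like each transcript were found by the correlation of log2 CPM deviations from the group means over the 16 libraries. These are descriptions of libraries that share depth and cell preparation, and knockout-labelled replicates 1 to 3 against 4 and 5 carry much of them, so the value over the 11 transgenic and control libraries is set beside each. Wdfy4 was nearest to Cd74, the class II invariant chain (r = 0.983, and 0.984 over the 11 libraries), then Mpeg1 (0.978, and 0.888) and H2-Aa (0.968, and 0.827). After Wdfy4, Mpeg1 was nearest to Plbd1 (0.946, and 0.716) and H2-Aa (0.943, and 0.672). Lyz2 was nearest to Cd74 (0.901, and 0.742), Rassf4 (0.895, and 0.792) and H2-Aa (0.892, and 0.733).

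Itgax was nearest to the class II beta chain H2-Ab1 (r = 0.898, and 0.872 over the 11 libraries), Cybb (0.896, and 0.772) and H2-Eb1 (0.889, and 0.789). The other genes had no MHC class II gene among their neighbours. For Cst3 these were Cdkn2d (0.843, and 0.878), Def6 (0.818, and 0.843) and Bag5 (0.809, and 0.839). For Ly75 they were Rxfp1 (0.889, and 0.793), Plpp5 (0.855, and 0.939) and Mpv17 (0.854, and 0.82). Fcer1g was nearest to Coro2a (0.886, and 0.896), Adam19 (0.838, and 0.862) and Unc93b1 (0.837, and 0.811), and the neighbours given for Csf1r were Slc30a1 (0.89, and 0.802) and Slc46a3 (0.831, and 0.783).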

How the data were processed

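RNA integrity numbers were above 9 and libraries used stranded KAPA chemistry, per the labels' protocols. The authors aligned reads to GRCm38 (mm10) and listed Bowtie 1.0.0, SAMtools 0.1.18 and edgeR 3.24.3, per the submitters' processing notes, and no source used here names the counting program. Per gene identifier and library, the deposited files give estimated counts (expected counts) and TPM. Among nonzero deposited estimated counts, 58.7% were whole within 1e-06. The deposited TPM values sum to 1000000 per library and were used to order genes, in no test. GENCODE's annotation of GRCm38 named 46005 of the 46517 identifiers. No sample column was left unmapped.

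Estimated counts were rounded and fitted with edgeR 4.0.16 in R 4.3.3 (filterByExpr by group, TMM, robust quasi-likelihood F test with group and sex on all 16 libraries, 12 residual degrees of freedom). Two-sided p-values were adjusted by Benjamini-Hochberg over all 14933 tested genes, and 0.05 was the threshold. CPM uses TMM-scaled library sizes, and limits for a count of 0 (3 counts) cover counting error only. Replicates are separate mice by their identifiers, and 2 libraries of a group differed by a chi-square of 4.55 to 80.4 per degree of freedom. The fit was tested on simulated data.

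The 8 genes and the 15 lists (204 entries) were chosen with earlier results of these data known. Genes named were Nfkbid, the 8 genes, the 3 genes of each list with the smallest p in each comparison with controls, list genes at 0 in at least 12 libraries, and the 3 nearest genes of each member. List genes named besides these were chosen after their values were seen. A few genes that this rule names are not reported here. Alternatives were DESeq2 1.42.0, RLE size factors, library totals, no filter, a stricter filter (1 CPM in 5 libraries), no sex term, only the groups compared, the replicate number as a block, and each library left out. Males alone, and the data without control replicate 1 and knockout replicates 1 to 3, were added after seeing the data. The replicate numbers do not pair the mice: over 15 same-numbered pairs the correlation of deviations was -0.0884 to 0.273 and was over 0.1 in 1.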

Additional observations from a re-analysis of the deposited data

Results flagged for a closer look

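Single libraries stood apart from the rest of their group for 4 of the 8 genes and for 9 sums of gene lists, by Dixon's criterion on the gap to the nearest library. Of 69 groups of values examined 13 met it, where chance gives about 1 in 20.

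Control replicate 1 was the highest control for Wdfy4 (1.991 CPM, next 0.7173 CPM), Itgax (0.689 CPM, next 0.2207 CPM) and Lyz2 (4.096 CPM, next 0.9623 CPM). Its stromal, endothelial and erythroid sum was 288.97 CPM, next 223.23 CPM. Within that list the haemoglobin genes of control replicate 1 stood out. Hbb-bs had 39.2 CPM there and at most 3.21 CPM in the other controls, and Hba-a1 43.4 and at most 3.44 CPM. Pecam1 (183 CPM) and Col1a2 (20.6 CPM) lay within the range of the other controls. Transgenic replicate 1 was highest for Fcer1g (1.22 CPM, next 0.6192 CPM), for the sum of activated dendritic cell genes (66.783 CPM, next 55.502 CPM) and for the sum of Fc receptor and ITAM adaptor genes (382.65 CPM, next 348.06 CPM).

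Control replicate 6 stood apart in list sums and in none of the 8 genes. It was the highest control in the sums of CSF receptor axis genes (512.79 CPM, next 445.73 CPM), pore-forming effector and leukocyte integrin genes (2549.2 CPM, next 2187.1 CPM), B cell genes (461.92 CPM, next 407.74 CPM) and granulocyte genes (11.918 CPM, next 8.7621 CPM), and the lowest in double-positive thymocyte genes (13008 CPM, next 14997 CPM). Knockout-labelled replicate 1 was highest in the CSF receptor axis sum (447.46 CPM, next 391.5 CPM).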

How the results depend on the processing

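Of 619 values of the 8 genes recomputed under other settings, 548 kept their direction and their side of the threshold. With the direction kept, 38 lost the threshold and 11 gained it, and 22 turned sign. Wdfy4 and Mpeg1 in knockout-labelled v control turned sign without control replicate 1 and knockout replicates 1 to 3. Both lost the threshold there too. Leaving out 1 library gave 8 called genes of 8 in transgenic v control each time, 2 to 6 of 8 in knockout-labelled v control (5 with all libraries) and 1 to 2 in transgenic v knockout-labelled (1 with all). Over all tested genes, males v females gave 17 to 50 calls (21 with all). The knockout-labelled v control call of Mpeg1 was lost in 18 of 26 settings, that of Fcer1g in 7 of 24 and that of Wdfy4 in 5 of 26. Calls of the 8 genes in knockout-labelled v control numbered 2 in a fit of only the groups compared, 1 with males alone and 0 without control replicate 1 and knockout replicates 1 to 3. In the last of these, Wdfy4 was -0.3228 and Mpeg1 -1.215, all genes called numbered 1438 (3942 with all libraries), transgenic v knockout-labelled calls of the 8 genes 5, and males v females 11 genes. DESeq2 called 2 of the 8 genes and 342 of all genes in transgenic v knockout-labelled libraries (174 by edgeR), and 110 of all genes between males and females. Without a filter 278 were called in transgenic v knockout-labelled libraries, and with males alone 106. Males alone also gave 3160 calls (5765 with both sexes) and 2 of the 8 genes in transgenic v control. With the replicate number as a block, 13 genes were called between males and females and 4 of the 8 genes, without Mpeg1, in knockout-labelled v control. It changed no other call of the 8 genes. The cause of these changes was not tested. Depth limits Fcer1g most, with 128 counts in all.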

Other observations

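Wdfy4 ordered the transgenic libraries differently by CPM and by the deposited TPM. Transgenic replicate 4 had the lowest Wdfy4 level of the group in CPM (5.32) but 2.246 TPM, and replicate 1 had 9.07 CPM and 3.699 TPM, whereas replicates 2, 3 and 5 had 6.33 to 8.72 CPM and 1.491 to 1.721 TPM. The cause of the different order was not tested. All 5 remained above the highest control, at 0.3227 TPM.

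Knockout-labelled replicate 4, low in Wdfy4, Mpeg1, Lyz2 and Itgax and at 0 for Csf1r and Cybb, was high in 2 genes of the dendritic cell lists that other cells also express. Cadm1, an adhesion molecule, had 16.9 CPM there and 0.962 to 3.46 CPM in every other library, and Ly6d, a surface protein of lymphoid progenitors, had 120.3 CPM there and 13.5 to 31.7 CPM in every other library.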
